A study of Mus musculus with 14 samples.

Results

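Matrix proteases cut the proteins that hold a tissue together, and plasminogen activation is one of the ways in which they are switched on. The 9 genes described here encode 6 matrix metalloproteinases (Mmp3, Mmp9, Mmp10, Mmp12, Mmp13 and Mmp14), the metalloproteinase inhibitor Timp1, urokinase (Plau) and the urokinase receptor (Plaur). They were taken by gene symbol from a count table of 56953 genes, where each symbol had 1 row, and all 9 were among the 16027 genes that passed the filter on low counts. The series holds RNA counts of 14 mouse skin libraries. The knockout mice, NEDD8fl/fl with K14-CreERT pos, gave 2 libraries with imiquimod and 3 with DMSO. Their Cre-negative counterparts, NEDD8fl/fl with K14-CreERT neg, gave 2 with imiquimod and 3 with DMSO, and wild type C57BL/6J mice gave 2 with imiquimod and 2 with DMSO. Both NEDD8fl/fl groups carry floxed Nedd8, whose product is a ubiquitin-like modifier of cullins, and the K14 promoter directs the Cre to keratinocytes, so other cells of the skin keep the gene. Imiquimod, a Toll-like receptor 7 agonist, was given as Aldara cream at 5%, once daily from day 0 to day 7, on the back or the right ear. Knockout mice were induced on the days before the start, and no induction is given for the other genotypes. The labels give no library with the cream's vehicle, no body site, no age and no animal, so p-values measure the spread between these libraries, and imiquimod is compared with DMSO and not with vehicle cream.

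Most metalloproteinases are secreted as inactive proenzymes and gain activity when a propeptide is removed, by plasmin, by another metalloproteinase or inside the cell by furin. Urokinase, bound to its receptor on the cell surface, converts plasminogen to plasmin, and stromelysin-1 can activate progelatinase B and procollagenases. TIMP proteins block the active enzymes. In wounded or inflamed skin, keratinocytes at the wound margin, fibroblasts, neutrophils and macrophages are known sources of these genes.

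Of the 9 genes, 4 lie together on chromosome 9 of GRCm39 on the plus strand, over 237.7 kb from position 7272514 to 7510241, in the order Mmp13, Mmp12, Mmp3, Mmp10. Mmp13 spans 7272514 to 7283331, Mmp12 7344397 to 7369499, Mmp3 7445822 to 7455975 and Mmp10 7502353 to 7510241. The others are Mmp9 on chromosome 2 (164790139 to 164797770), Plaur on chromosome 7 (24161909 to 24175392), Plau and Mmp14 on chromosome 14 (20886728 to 20893453 and 54669069 to 54682821) and Timp1 on chromosome X (20736405 to 20740974), all on the plus strand. Exons of Mmp12 overlap those of Mmp1b on the other strand, and Mmp1b had at most 3 reads in a library. Timp1 lies within Syn1, which runs on the other strand with separate exons and had at most 22 reads. The span of Mmp14 overlaps that of a gene on the same strand without a name, whose exons are separate and which had up to 7736 reads in a library.

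Promoter sequences from RefSeq on GRCm38.p6 were at hand for 7 of the 9 genes. They are shown for a short motif that several of them hold, which was looked for with the results known. Whether it goes with the changes below was not tested. In knockout over Cre-negative skin with DMSO, Timp1, without it, rose as much as Plaur, and Mmp12, with it, did not pass. With imiquimod in that comparison, the 5 genes that hold it had log2 fold changes of 3.58 to 6.63. Mmp14 and Timp1, without it, had 1.92 and 0.69 there. In wild-type skin with imiquimod over DMSO, Timp1 rose by 3.61 and Mmp3, with it, by 3.21. The AP-1 motif TGANTCA, which reads the same on both strands, occurred within the 250 bases before a start site in 5 of the 7 genes (Mmp3, Mmp10, Mmp12, Mmp13 and Plaur), and not in that window of Mmp14 or Timp1. It occurred in 6.75% of the 32851 windows of all genes, and 7.82% of 27025 genes had it in at least 1 window. Mmp12 has 2 start sites in the table, and the motif stands before the second only. The first base of the motif lies 46 bases before the start of Mmp3, 63 before that of Mmp10, 44 before the second start of Mmp12, 35 before that of Mmp13 and 69 before that of Plaur. The 100 bases before each start are given 5′ to 3′ on the plus strand, with the motif in capitals. Their positions on GRCm38.p6 are chr9:7445722-7445821 for Mmp3, chr9:7502242-7502341 for Mmp10, chr9:7272414-7272513 for Mmp13, chr9:7347274-7347373 for Mmp12, chr7:24462383-24462482 for Plaur and chrX:20870066-20870165 for Timp1, which is shown as a window without the motif. A match of letters is a description and says nothing about binding.
Mmp3: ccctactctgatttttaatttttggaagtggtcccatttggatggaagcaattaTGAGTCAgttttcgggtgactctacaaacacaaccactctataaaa
Mmp10: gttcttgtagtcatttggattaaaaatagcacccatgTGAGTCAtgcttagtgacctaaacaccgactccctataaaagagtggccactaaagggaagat
Mmp13: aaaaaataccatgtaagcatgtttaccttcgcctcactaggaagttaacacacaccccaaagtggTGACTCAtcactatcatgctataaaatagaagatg
Mmp12, second start: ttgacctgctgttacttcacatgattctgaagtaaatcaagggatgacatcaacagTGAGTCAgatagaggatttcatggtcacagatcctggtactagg
Plaur: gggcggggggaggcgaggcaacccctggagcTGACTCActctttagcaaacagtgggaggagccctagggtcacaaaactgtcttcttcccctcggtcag
Timp1: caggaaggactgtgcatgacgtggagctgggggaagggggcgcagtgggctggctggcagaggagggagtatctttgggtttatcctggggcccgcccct

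The libraries held 5552954 to 34362477 counts. Reads of the 18S ribosomal gene Rn18s-rs5 made up 17.5% of knockout DMSO replicate 1 and 19.1% of Cre-negative imiquimod replicate 2, and 3.84% to 9.91% of the other libraries. Read by Xist and Y-linked counts, the knockout imiquimod and Cre-negative imiquimod libraries were male, the knockout DMSO and all wild-type libraries female, and the Cre-negative DMSO libraries 2 male and 1 (replicate 3) female. Sex and treatment therefore cannot be told apart in knockout skin without the other groups. Keratinocyte markers were high in all libraries, at 7079 to 23484 summed CPM, that is counts scaled to libraries of equal size. Nedd8 itself was at 375, 158 and 147 CPM in knockout DMSO libraries, against 360, 290 and 291 CPM in Cre-negative DMSO libraries. Its log2 fold change in knockout over Cre-negative skin did not pass the test, at -0.47 ± 0.40 SE in DMSO skin (edgeR adjusted p = 0.403) and -0.76 ± 0.50 in imiquimod skin (adjusted p = 0.326). The sources used here do not say which exons are floxed, and reads come from transcript 3′ ends, so these counts do not check the deletion.

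The stromelysins Mmp3 and Mmp10 and the collagenase Mmp13 had the widest ranges. All levels are CPM after TMM scaling, without division by gene length, since 1 tag stands for 1 transcript end whatever its length. Levels of these genes are compared within a gene only. Mmp3, stromelysin-1, which degrades proteoglycans, laminin and fibronectin, was at 1838 and 739 CPM in knockout imiquimod libraries and at 62.2, 142 and 37.8 CPM in knockout DMSO libraries. It was at 45.9 and 169 CPM in Cre-negative imiquimod libraries and at 6.88, 4.60 and 5.39 CPM in Cre-negative DMSO libraries. Wild-type libraries had 33.9 and 36.0 CPM with imiquimod and 3.31 and 4.21 CPM with DMSO. Both knockout imiquimod libraries lay above all others, and the Cre-negative imiquimod and knockout DMSO libraries overlapped. Mmp10, stromelysin-2, which is made by migrating keratinocytes in wounds, was at 90.3 and 29.9 CPM in knockout imiquimod libraries and at 1.27, 3.79 and 1.32 CPM in knockout DMSO libraries. Elsewhere it was near its limit of detection, with 2 and 12 reads in the Cre-negative imiquimod libraries, 1 read in each of the 3 Cre-negative DMSO libraries and 1 read in all in each of the wild-type groups. Outside knockout skin its differences therefore rest on a few reads. Mmp13, a collagenase that cuts fibrillar collagen, was at 450 and 154 CPM in knockout imiquimod libraries and at 18.3, 17.1 and 23.6 CPM in knockout DMSO libraries. Cre-negative libraries had 7.32 and 3.30 CPM with imiquimod and 0.447, 0.109 and 0.729 CPM with DMSO. Wild-type libraries had 3.91 and 5.53 CPM with imiquimod, and 1 read and 0 reads with DMSO. Every knockout library lay above every library of the other genotypes, and both knockout imiquimod libraries above the rest.

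The macrophage elastase gene Mmp12 was at 48.8 and 15.8 CPM in knockout imiquimod libraries and at 3.82, 2.43 and 2.90 CPM in knockout DMSO libraries. It was at 1.43 and 1.88 CPM in Cre-negative imiquimod libraries and at 1.45, 3.39 and 11.6 CPM in Cre-negative DMSO libraries, where the highest value is that of the female library. In wild-type skin it had 3 and 7 reads with imiquimod and 1 and 6 reads with DMSO. The wild-type libraries were the lowest, and the Cre-negative DMSO libraries spread across those of knockout DMSO skin. Mmp9, gelatinase B, which cleaves denatured collagen and type IV collagen and is stored in neutrophil granules as well as made by keratinocytes, was at 452 and 242 CPM in knockout imiquimod libraries and at 194, 66.8 and 152 CPM in knockout DMSO libraries. It was at 43.0 and 13.9 CPM in Cre-negative imiquimod libraries and at 11.6, 9.30 and 18.1 CPM in Cre-negative DMSO libraries. Wild-type libraries had 31.4 and 19.8 CPM with imiquimod and 9.53 and 15.2 CPM with DMSO. All 5 knockout libraries lay above all 9 others. Mmp14, a membrane-anchored collagenase that activates pro-MMP2, was at 368 and 250 CPM in knockout imiquimod libraries, and at 86.1, 133 and 114 CPM in knockout DMSO libraries. Cre-negative libraries had 74.2 and 89.3 CPM with imiquimod and 74.5, 73.9 and 75.5 CPM with DMSO. In wild-type skin Mmp14 was at 26.4 and 47.5 CPM with imiquimod and at 93.7 and 102 CPM with DMSO, so that the imiquimod libraries of wild-type skin were the lowest of all 14.

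Timp1, a secreted inhibitor of most metalloproteinases, was at 16.4 and 12.5 CPM in knockout imiquimod libraries and at 6.37, 10.1 and 10.1 CPM in knockout DMSO libraries. Cre-negative libraries had 2.58 and 14.9 CPM with imiquimod and 0.559, 0.657 and 1.89 CPM with DMSO, and wild-type libraries had 6.22 and 13.4 CPM with imiquimod and 0.401 and 1.09 CPM with DMSO. The 4 higher groups, which are all imiquimod groups and knockout DMSO skin, were neighbours that overlapped, and the DMSO libraries of the other genotypes lay below them. Plau was at 28.6 and 54.2 CPM in knockout imiquimod libraries, at 7.64, 20.3 and 18.5 CPM in knockout DMSO libraries, at 27.5 and 22.7 CPM in Cre-negative imiquimod libraries and at 6.32, 10.6 and 12.2 CPM in Cre-negative DMSO libraries. Wild-type libraries had 5.09 and 17.2 CPM with imiquimod and 6.12 and 5.05 CPM with DMSO. Its range was the narrowest of the 3 genes of this paragraph. Plaur, which holds urokinase at the cell surface, was at 151 and 195 CPM in knockout imiquimod libraries and at 2.80, 17.2 and 8.79 CPM in knockout DMSO libraries. It was at 4.73 and 5.38 CPM in Cre-negative imiquimod libraries and at 0.615, 0.821 and 1.97 CPM in Cre-negative DMSO libraries. Wild-type libraries had 3.16 and 4.44 CPM with imiquimod and 1.30 and 0.941 CPM with DMSO. The knockout imiquimod libraries stood far above the others, and the knockout DMSO libraries overlapped with Cre-negative imiquimod libraries.

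**Figure D1:**
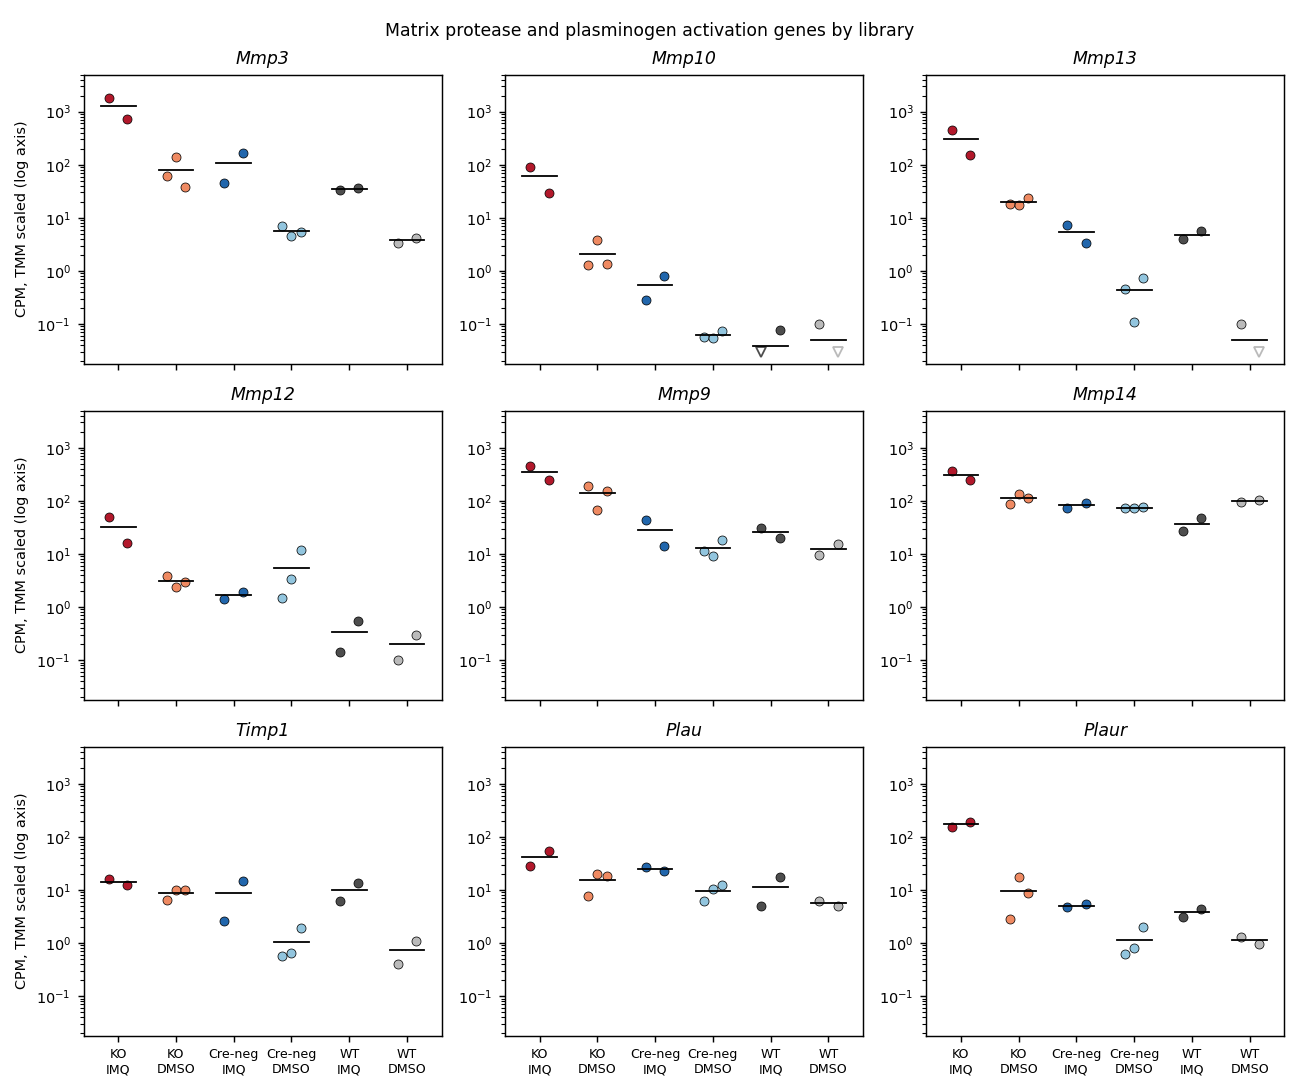
Level of each of the 9 genes in CPM (TMM scaled, log axis) in every library, by group; KO is knockout, Cre-neg is Cre-negative, WT is wild type and IMQ is imiquimod. Points are libraries, lines are group means and open triangles are libraries with 0 reads; the 2 knockout imiquimod libraries lie highest for Mmp3, Mmp10, Mmp13, Mmp12, Mmp9, Mmp14, Plau and Plaur.

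The first comparison asks how these genes differ when NEDD8fl/fl mice carry K14-CreERT, without imiquimod. In DMSO skin, 6 of the 9 genes were higher in knockout than in Cre-negative skin and 0 were lower (Mmp3, Mmp9, Mmp10, Mmp13, Timp1 and Plaur). Of all genes tested, 14% were higher and 15.7% lower (29.6% in all), and the median log2 fold change was 3.14 over the 9 genes and -0.06 over all genes. With scaling by library size alone the split over all genes was 7.38% higher and 21.1% lower. Mmp13 rose most, by a log2 fold change of 5.55 ± 0.62 (SE; adjusted p = 4.58e-05), followed by Mmp10, which had 91 reads in knockout and 3 in Cre-negative libraries, a ratio of 30.4 (95% counting interval 10.1 to 150). Mmp3 rose by 3.84 ± 0.59 (adjusted p = 0.000414) and Mmp9 by 3.40 ± 0.52 (adjusted p = 0.000406). Timp1 and Plaur both rose by 3.14, with adjusted p = 0.00320 and 0.00115. In each of these 6 genes no library of a group overlapped with the other group. The same held for Mmp14, which did not pass, and the share of all genes without overlap was not counted. Mmp14 (0.57 ± 0.28, adjusted p = 0.135), Plau (0.70 ± 0.46, adjusted p = 0.273) and Mmp12 (-0.86 ± 0.66, adjusted p = 0.349) did not pass the test, and the value of Mmp12 was 0.30 without Cre-negative DMSO replicate 3. With sex as a term in the model 3 calls ended, those of Mmp10 (4.73, adjusted p = 0.0520), Timp1 (2.24, adjusted p = 0.139) and Plaur (2.32, adjusted p = 0.0780), while the calls of Mmp3, Mmp9 and Mmp13 held in all 16 alternatives run.

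With imiquimod, where both groups are male, 7 of the 9 genes were higher in knockout than in Cre-negative skin and 0 were lower, against 11.6% higher and 6.33% lower among all genes, 17.9% in all (15.2% and 3.09% by library size alone). Mmp12 and Mmp14 joined Mmp3, Mmp9, Mmp10, Mmp13 and Plaur, and Timp1 did not pass. The median log2 fold change was 3.62 over the 9 genes and 0.02 over all genes. Mmp10 rose by a log2 fold change of 6.63 ± 0.82 (adjusted p = 0.000337), Mmp13 by 5.86 ± 0.71 (adjusted p = 0.000313) and Plaur by 5.09 ± 0.70 (adjusted p = 0.000577). Mmp12 rose by 4.26 ± 0.89 (adjusted p = 0.00627), Mmp9 by 3.62 ± 0.64 (adjusted p = 0.00248), Mmp3 by 3.58 ± 0.70 (adjusted p = 0.00441) and Mmp14 by 1.92 ± 0.35 (adjusted p = 0.00307). Timp1 (0.69 ± 0.70, adjusted p = 0.546) and Plau (0.72 ± 0.56, adjusted p = 0.413) did not pass, and for Timp1 1 Cre-negative library lay below both knockout libraries and the other between them. Without Cre-negative imiquimod replicate 1 the value for Timp1 was -0.13. The Mmp12 call ended without knockout imiquimod replicate 1 (3.22, adjusted p = 0.0658), without either Cre-negative imiquimod library (4.0 and 4.52, adjusted p = 0.0597 and 0.0509) and without both libraries high in 18S RNA (4.46, adjusted p = 0.0548). The calls of the other 6 genes held in all 14 alternatives.

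**Figure D2:**
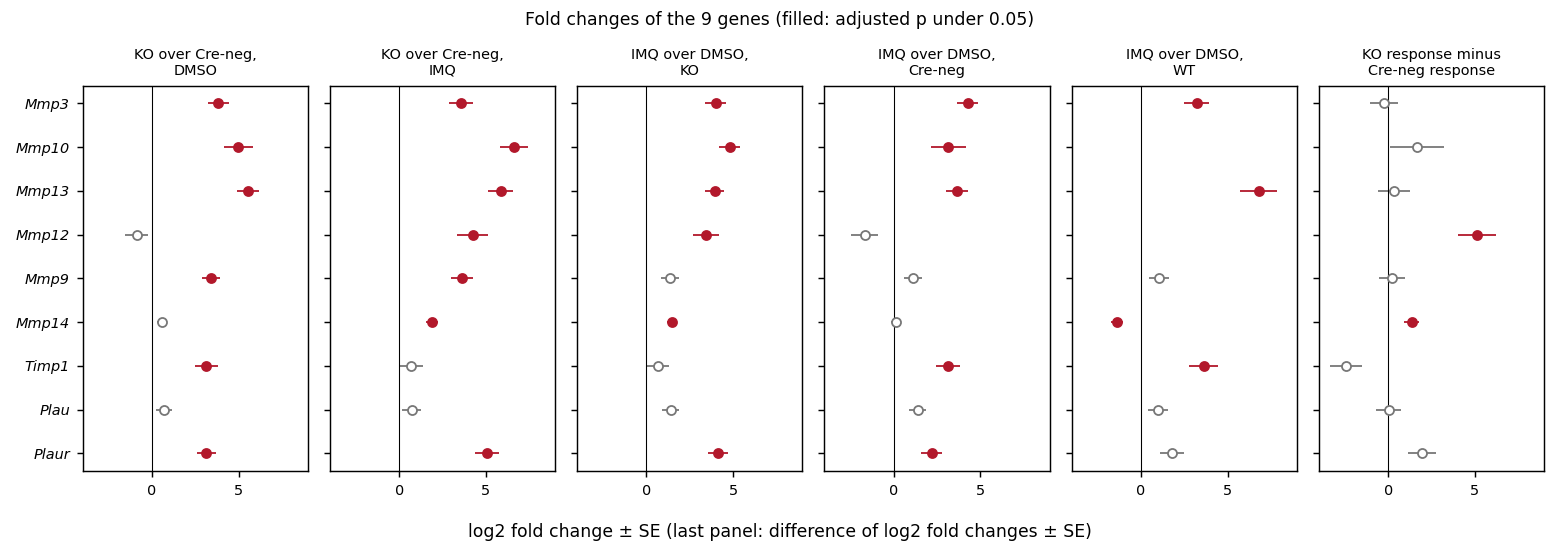
Log2 fold change (x axis) of each of the 9 genes in 5 comparisons, and in the last panel the imiquimod response of knockout skin minus that of Cre-negative skin, from edgeR, with bars of 1 SE. Filled points have an adjusted p under 0.05; Mmp10 and Mmp12 are not drawn in wild-type skin, where they had at most 10 reads a group.

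Markers of other cells moved with these comparisons. The summed level of 10 neutrophil markers was 2979 and 1301 CPM in knockout imiquimod libraries and 50.4 and 44.1 CPM in Cre-negative imiquimod libraries, and 7 of the 10, of which 8 were tested, were higher in knockout skin. With DMSO it was 18.3 to 45.5 CPM in knockout and 5.20 to 9.47 CPM in Cre-negative libraries, and 4 of the 10 were higher. Retnlg and Ngp made up most of the sum in knockout imiquimod skin, with means of 1102 and 666 CPM. Ly6g, a defining neutrophil marker, had 0 reads in Cre-negative and wild-type DMSO libraries, and Elane had 0 reads in knockout libraries with either treatment. Macrophage markers summed to 1899 and 899 CPM in knockout imiquimod libraries and to 298 and 792 CPM in Cre-negative imiquimod libraries, and 4 of 10 were higher in knockout skin. With DMSO they were at 242 to 639 CPM in knockout and 548 to 690 CPM in Cre-negative libraries, with 0 higher and 1 lower. Of 8 endothelial markers, 6 were higher in knockout skin with imiquimod (146 to 324 against 32.1 to 39.4 summed CPM) and 3 with DMSO (60.4 to 151 against 40.7 to 50.2). Skeletal muscle markers, at 1686 to 2710 CPM in knockout DMSO libraries and 7680 to 21266 CPM in Cre-negative DMSO libraries, fell in 7 of 7. Keratinocyte markers were at 17771 to 23343 CPM in knockout and 8270 to 15250 CPM in Cre-negative skin with DMSO (4 of 10 higher, 2 lower), and at 7079 to 12003 against 15634 to 23484 CPM with imiquimod (1 higher, 2 lower). Krt14 carried the higher DMSO sum, with means of 15546 CPM in knockout and 2472 CPM in Cre-negative skin. Krt10 went the other way with DMSO, at 30.9 against 5660 CPM, as did Krt1, at 265 against 1390 CPM. Fibroblast markers were at 912 to 1262 against 2369 to 2501 CPM with DMSO (1 of 10 higher, 2 lower) and at 1630 to 2006 against 687 to 1643 CPM with imiquimod (1 higher, 0 lower). Knockout imiquimod replicate 1 had the higher sums of neutrophil, macrophage, endothelial, fibroblast and skeletal muscle markers, and the lower sum of keratinocyte markers. Its skeletal muscle markers were at 3802 CPM, against 1221 CPM in replicate 2. Replicate 1 also had the higher Mmp3, Mmp9, Mmp10, Mmp12, Mmp13, Mmp14 and Timp1, and the lower Plau and Plaur. The part of these cells in the results was not tested, and in whole skin more cells of a type and more RNA per cell cannot be told apart.

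**Figure D3:**
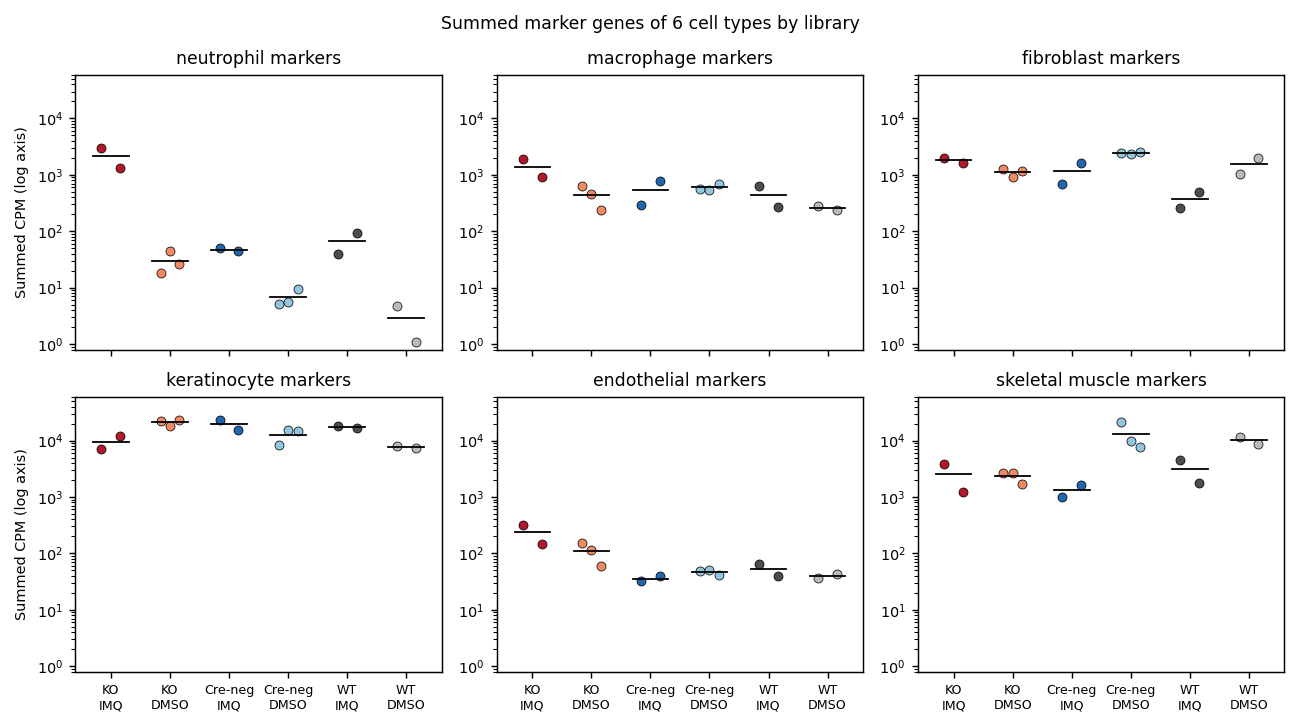
Summed CPM (log axis) of marker genes of 6 cell types in every library, by group, with lines at group means. Neutrophil markers lie at 1301 and 2979 CPM in the knockout imiquimod libraries and at most at 92.5 CPM elsewhere, while keratinocyte markers are at 7079 CPM or more in every library.

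Imiquimod was set against DMSO within each genotype. In knockout skin, 6 of the 9 genes were higher with imiquimod and 0 lower, with 8.56% of all genes higher and 2.52% lower (11.1% in all). In Cre-negative skin 5 were higher and 0 lower, with 8.15% and 10.1% of all genes, 18.2% in all (3.35% and 19.6% by library size alone). In wild-type skin 3 were higher and 1 lower, with 9.59% and 11.8% of all genes, 21.4% in all (3.44% and 22.5% by library size alone). Mmp3 and Mmp13 rose in all 3 genotypes, and Mmp9 and Plau in 0 of the 3 under edgeR. Under DESeq2 Plau passed in knockout (1.44, adjusted p = 0.0418) and Cre-negative skin (1.39, adjusted p = 0.0384), and without a filter on low counts Plau and Mmp9 passed in both.

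In knockout skin Mmp10 rose by a log2 fold change of 4.80 ± 0.62 (adjusted p = 0.000371), Plaur by 4.13 ± 0.56 (adjusted p = 0.000511), Mmp3 by 4.0 ± 0.61 (adjusted p = 0.00106) and Mmp13 by 3.93 ± 0.55 (adjusted p = 0.000575). Mmp12 rose by 3.44 ± 0.73 (adjusted p = 0.00850) and Mmp14 by 1.48 ± 0.31 (adjusted p = 0.00725). Plau (1.40 ± 0.50, adjusted p = 0.0932), Mmp9 (1.34 ± 0.52, adjusted p = 0.115) and Timp1 (0.69 ± 0.64, adjusted p = 0.531) did not pass. Without knockout imiquimod replicate 1 the calls of Mmp12 (2.40, adjusted p = 0.202) and Mmp14 (1.17, adjusted p = 0.155) ended. With the sex term, which leans on the other groups to part sex from treatment here, those of Mmp3 (3.91, adjusted p = 0.0919), Mmp10 (5.15, adjusted p = 0.538) and Mmp14 (1.5, adjusted p = 0.262) ended.

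In Cre-negative skin Mmp3 rose by 4.26 ± 0.62 (log2, adjusted p = 0.000616) and Mmp13 by 3.63 ± 0.64 (adjusted p = 0.00213), and both calls held in all 15 alternatives. Mmp10, with 14 reads against 3, had a ratio of 10.7 (95% counting interval 2.98 to 57.9), and its call (adjusted p = 0.0456) ended in 9 of 14 alternatives. Timp1 rose by 3.13 ± 0.69 (adjusted p = 0.00745), a call that rested on replicate 2 of the imiquimod libraries: without it the value was 1.34 (adjusted p = 0.297). That library is also the one highest in 18S RNA. Plaur rose by 2.19 ± 0.59 (adjusted p = 0.0220), a call that ended by library size alone (1.57, adjusted p = 0.127) and without Cre-negative DMSO replicate 1 or 2 or imiquimod replicate 2 (1.88, 2.0 and 2.08). Plau (1.37 ± 0.51, adjusted p = 0.0756), Mmp9 (1.13 ± 0.53, adjusted p = 0.153), Mmp14 (0.13 ± 0.31, adjusted p = 0.799) and Mmp12 (-1.69 ± 0.79, adjusted p = 0.156) did not pass. Mmp14 had a value of -0.46 by library size alone and of -0.0087 without Cre-negative imiquimod replicate 2.

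In wild-type skin, where all libraries are female, Mmp13 had 154 reads with imiquimod and 1 read with DMSO, a ratio of 136 (95% counting interval 24.1 to 5421; adjusted p = 0.00114). Timp1 rose by 3.61 ± 0.82 (adjusted p = 0.00873) and Mmp3 by 3.21 ± 0.71 (adjusted p = 0.00762). Mmp14 fell, with a log2 fold change of -1.41 ± 0.35 (adjusted p = 0.0128). The Mmp13 call held in all 14 alternatives. The Mmp3 call ended without wild-type DMSO replicate 1 or 2 (3.14 and 3.40, adjusted p = 0.0567 and 0.0502), the Timp1 call without DMSO replicate 1 (3.23, adjusted p = 0.0686), and the Mmp14 call without DMSO replicate 1 or 2 or imiquimod replicate 1 (adjusted p = 0.0562, 0.0718 and 0.125) and in a model of only the groups compared (adjusted p = 0.0647). Plaur (1.77 ± 0.68, adjusted p = 0.0763), Mmp9 (1.05 ± 0.59, adjusted p = 0.215) and Plau (0.99 ± 0.58, adjusted p = 0.230) did not pass, and Plau had a value of -0.035 without wild-type imiquimod replicate 2. Mmp12, with 10 reads against 7, and Mmp10, with 1 read in each group, were too low to compare.

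Neutrophil markers, taken as a sum, were higher with imiquimod in every genotype. Their sum was 1301 to 2979 CPM with imiquimod and 18.3 to 45.5 CPM with DMSO in knockout skin, 44.1 to 50.4 against 5.20 to 9.47 CPM in Cre-negative skin, and 40.3 to 92.5 against 1.09 to 4.82 CPM in wild-type skin. Of the 10 markers, 8, 5 and 5 were higher. Cxcr2 made up most of the imiquimod sum in Cre-negative and wild-type skin, with means of 27.9 and 46.9 CPM. Ngp was there at 0.464 and 0.0706 CPM, Ltf at 0.135 and 0.0706 CPM and Camp at 0 and 0.156 CPM. Fibroblast markers were at 259 to 495 CPM with imiquimod and 1051 to 2023 CPM with DMSO in wild-type skin, where 5 of 10 fell and where Mmp14 fell. In Cre-negative skin they were at 687 and 1643 CPM with imiquimod and 2369 to 2501 CPM with DMSO, with 1 higher and 1 lower, while Mmp14 did not pass (0.13). In knockout skin they were at 1630 to 2006 against 912 to 1262 CPM, with 2 higher and 0 lower and a median log2 fold change of -0.29. Dcn made up most of that difference, with a mean of 1249 CPM with imiquimod and 303 CPM with DMSO, while the means of Col1a1, Col1a2, Col3a1 and Lum were lower with imiquimod. Macrophage markers rose in 6 of 10 in knockout skin and in 0 of 10 in the other genotypes. Skeletal muscle markers fell in 4 of 7 in wild-type skin, at 1734 to 4507 CPM with imiquimod and 8818 to 11723 CPM with DMSO. They fell in 7 of 7 in Cre-negative and in 0 of 7 in knockout skin. Keratinocyte markers were higher in 2 of 10, and endothelial markers in 1 of 8, in both wild-type and Cre-negative skin. In Cre-negative skin 1 endothelial marker was lower, and in knockout skin 0 of either list passed. The part of these cells was not tested.

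The difference between the imiquimod response of knockout skin and that of Cre-negative skin was tested as an interaction. It was positive for 2 of the 9 genes and negative for 0, against 14% and 9.63% of all genes (22.8% and 3.19% by library size alone), so 2 of 9 is a share near that of all genes (23.6% in either direction). Mmp12 differed by 5.12 ± 1.10 (log2, adjusted p = 0.00640), with 32.3 ± 23.4 CPM in knockout imiquimod and 3.05 ± 0.709 CPM in knockout DMSO skin, against 1.66 ± 0.317 CPM in Cre-negative imiquimod and 5.48 ± 5.38 CPM in Cre-negative DMSO skin (SD, n = 2 with imiquimod and 3 with DMSO). This call held in all 20 alternatives. Mmp14 differed by 1.34 ± 0.44 (adjusted p = 0.0418), a call that ended in 11 of 20 alternatives, with values of 1.04 to 1.5. Timp1 went the other way at -2.44 ± 0.95 (adjusted p = 0.0758) and Plaur was at 1.95 ± 0.82 (adjusted p = 0.0975). For Timp1 the test passed in 5 of 20 alternatives, DESeq2 (adjusted p = 0.0428) and limma voom (adjusted p = 0.0394) among them. For the other 5 genes the unadjusted p was above 0.05. The knockout and imiquimod comparisons share libraries, so their fold changes are not independent of each other.

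Cre-negative skin was also set against wild-type skin, to see the genes in floxed mice without Cre. All wild-type libraries are female and both Cre-negative imiquimod libraries male. With imiquimod, sex and genotype therefore cannot be told apart between these groups without the others. With DMSO, 2 of the 3 Cre-negative libraries are male. Under edgeR 0 of the 9 genes passed with either treatment, and 0% of all genes did. At an unadjusted p under 0.05 there were 2 of the 9 genes with DMSO and 4 with imiquimod, and 1120 and 2747 of all genes. DESeq2 called 1 of the 9 in each, and limma voom 0. The 2 with DMSO were Mmp12 (log2 fold change 4.56 ± 0.99, adjusted p = 0.136), with 247 reads against 7, and Mmp13 (20 reads against 1, a ratio of 12.1 with a 95% counting interval of 1.93 to 501, adjusted p = 0.522). With imiquimod they were Mmp14 (1.15 ± 0.34, adjusted p = 0.171), Mmp10 (14 reads against 1, a ratio of 21.8 with a 95% counting interval of 3.32 to 924, adjusted p = 0.178), Mmp3 (1.62 ± 0.65, adjusted p = 0.242) and Mmp12 (2.39 ± 1.0, adjusted p = 0.254).

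Other genes of the same systems were followed in lists of 97 genes. Their counts in knockout against Cre-negative skin are to be read against the shares of all genes called. With DMSO 14% of all genes were higher and 15.7% lower (29.6% in all), and with imiquimod 11.6% and 6.33% (17.9% in all). Among the 17 other metalloproteinases, 11 were tested. Of these, 3 were higher and 1 lower in knockout than in Cre-negative skin with DMSO, near the share of all genes in either direction. With imiquimod 4 were higher and 0 lower. Mmp8, the neutrophil collagenase, which lies next to Mmp10 in the chromosome 9 cluster at 7558457 to 7568486, rose in all 5 comparisons. The Mmp8 call for imiquimod against DMSO in knockout skin ended with the sex term (adjusted p = 0.275). Its mean was 1453 CPM in knockout imiquimod, 11.5 CPM in knockout DMSO, 8.85 CPM in Cre-negative imiquimod and 0.0855 CPM in Cre-negative DMSO skin, and its log2 fold change was 7.35 ± 0.97 (adjusted p = 0.000455) in knockout over Cre-negative skin with imiquimod and 7.02 ± 0.95 (adjusted p = 0.000181) with DMSO. Of the 10 Mmp genes of the cluster, Mmp7 had 0 reads and Mmp20 and Mmp1b at most 5 in any group, while Mmp1a, between Mmp3 and Mmp10, had 39 reads in knockout imiquimod, 19 in knockout DMSO, 2 in Cre-negative imiquimod and 0 in Cre-negative DMSO skin. Mmp19 rose by 4.05 ± 0.78 (adjusted p = 0.00401) and Mmp25, a membrane-anchored enzyme of neutrophils, by 3.05 ± 0.79 (adjusted p = 0.0175) in knockout skin with imiquimod. Mmp2, gelatinase A, the proenzyme that MMP14 activates, rose by 2.07 ± 0.42 (adjusted p = 0.00505). These 3 calls ended without knockout imiquimod replicate 1, and those of Mmp25 and Mmp2 in 3 and 2 of 14 alternatives in all.

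Of the 6 other inhibitors, 4 were tested. In DMSO skin 2 were lower and 0 higher in knockout than in Cre-negative skin, and with imiquimod 1 was higher and 0 lower. The 1 was Timp4, which rose by 1.91 ± 0.63 with imiquimod (adjusted p = 0.0491), a call that ended in 6 of 14 alternatives, and which did not pass with DMSO (0.37 ± 0.50, adjusted p = 0.607). Timp3, a TIMP bound to the matrix, was at 114 ± 31.2 CPM in knockout and 367 ± 72.5 CPM in Cre-negative skin (SD, n = 3 each), a log2 fold change of -1.69 ± 0.33 (adjusted p = 0.00219). Timp2 was at 209 ± 51.4 against 533 ± 160 CPM (-1.35 ± 0.33, adjusted p = 0.00815). Timp3 also fell with imiquimod, by 2.78 ± 0.40 on the log2 scale in Cre-negative (adjusted p = 0.000616) and by 2.88 ± 0.42 in wild-type skin (adjusted p = 0.000768). In knockout skin 0 of the 4 passed with imiquimod against DMSO under edgeR, and the responses of knockout and Cre-negative skin differed for Timp3 (2.86 ± 0.52, adjusted p = 0.00304) and Timp2 (2.05 ± 0.52, adjusted p = 0.0139). With the sex term the DMSO calls of Timp3 (adjusted p = 0.0650) and Timp2 (adjusted p = 0.282) ended.

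The counts of the lists that follow are likewise to be read against 29.6% of all genes called with DMSO and 17.9% with imiquimod. With DMSO 3 of 9 plasminogen genes and 6 of 18 ADAM genes are near that share. The 5 of 12 basement membrane genes called with DMSO were all higher, where 14% of all genes were higher. Of 11 interstitial matrix genes 5 were called, 2 higher and 3 lower. Of 13 other genes of the plasminogen system, 9 were tested, and 2 were higher and 1 lower in knockout skin with DMSO, and 3 higher and 1 lower with imiquimod. Plg, the gene of plasminogen itself, which is made in the liver, had 6 reads or fewer in every group. Serpinb2, an inhibitor of urokinase, was at 109 ± 45.6 CPM in knockout DMSO and 45.2 ± 3.15 CPM in Cre-negative DMSO skin (SD, n = 3 each; log2 fold change 1.28 ± 0.42, adjusted p = 0.0339), a call that ended in 6 of 16 alternatives. Serpine2, protease nexin-1, another inhibitor of urokinase, was at 159 ± 54.2 CPM in knockout imiquimod and 7.46 ± 3.05 CPM in Cre-negative imiquimod skin (n = 2 each; 4.39 ± 0.68, adjusted p = 0.00117). Plat, tissue plasminogen activator, did not pass in either comparison (-1.29 ± 0.81, adjusted p = 0.244 with DMSO; -0.23 ± 0.98, adjusted p = 0.906 with imiquimod). Plgrkt, a plasminogen receptor, was lower in knockout skin, at -0.94 ± 0.29 in DMSO skin (adjusted p = 0.0281) and at -1.92 ± 0.36 in imiquimod skin (adjusted p = 0.00363), and the DMSO call ended in 8 of 16 alternatives. Lrp1, which takes up urokinase and inhibitor complexes, rose by 1.66 ± 0.34 with imiquimod (adjusted p = 0.00533), a call that ended in 2 of 14.

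**Figure D4:**
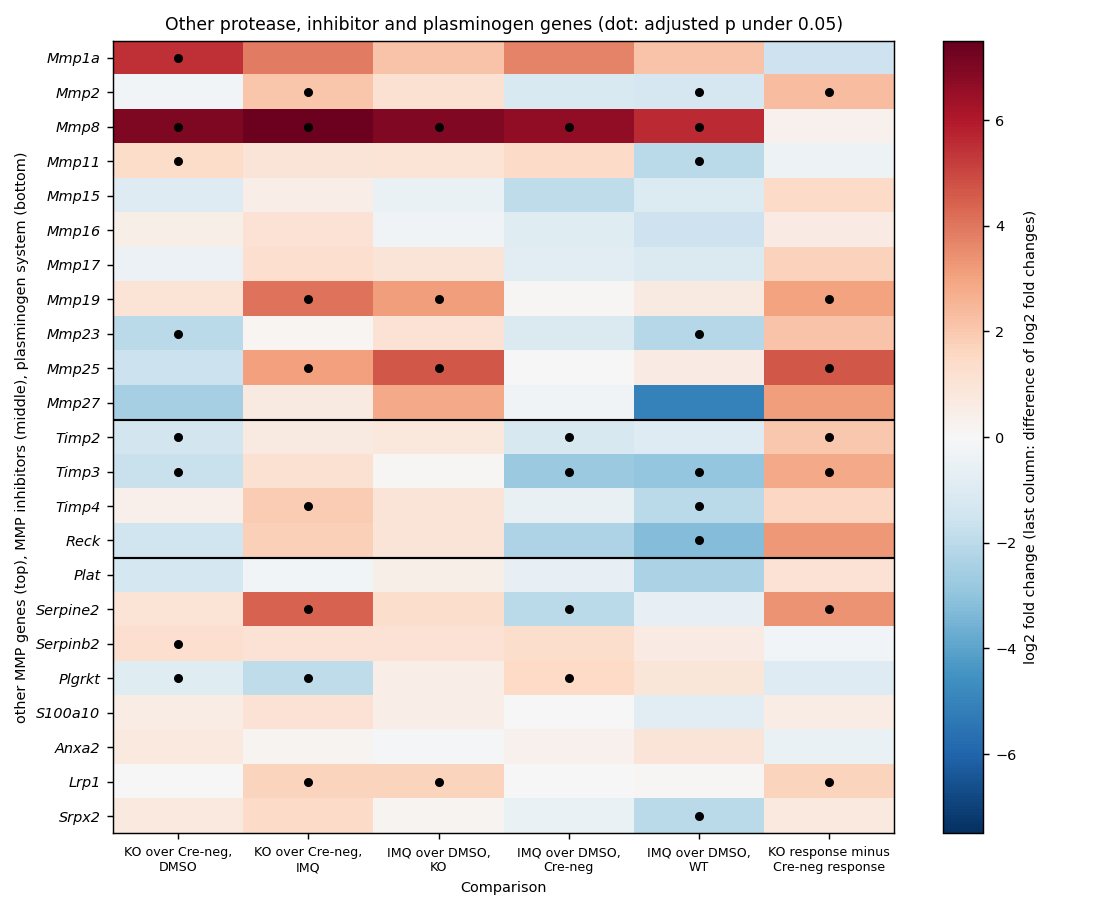
Log2 fold changes (colour) of the 11 other metalloproteinases, 4 inhibitors and 8 plasminogen system genes, by comparison, with a dot where the adjusted p was under 0.05. Mmp8 is called in all 5 pair comparisons, and Timp3 is lower in knockout DMSO, Cre-negative imiquimod and wild-type imiquimod skin; colours of Mmp1a and Mmp27 rest on few reads, with groups at 0.

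Among 25 ADAM and ADAMTS proteases, 18 were tested, with 4 higher and 2 lower in knockout skin with DMSO and 10 higher and 0 lower with imiquimod. Adamts4, an aggrecan-cleaving enzyme, rose by 4.72 ± 0.69 (adjusted p = 0.000302) with DMSO and by 4.49 ± 0.78 (adjusted p = 0.00220) with imiquimod, and Adam8, a membrane sheddase of leukocytes, by 2.18 ± 0.46 (adjusted p = 0.00355) and 3.65 ± 0.60 (adjusted p = 0.00155). Of 12 cathepsins and other matrix-degrading proteases, 4 were higher and 2 lower with DMSO and 6 higher and 0 lower with imiquimod. Furin, which removes the propeptide of MMP14, rose by 1.15 ± 0.28 (adjusted p = 0.00873) and 1.23 ± 0.35 (adjusted p = 0.0267). The Furin call ended in 2 of 16 alternatives with DMSO and in 6 of 14 with imiquimod, and the Adam8 call with DMSO ended with the sex term.

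Lists of genes whose proteins these enzymes cut were counted in the same way. Of 12 basement membrane genes, 5 were higher and 0 lower in knockout skin with DMSO, and 8 were higher and 0 lower with imiquimod. Lamb3, a laminin chain of the basement membrane under keratinocytes, rose by 1.66 ± 0.36 (adjusted p = 0.00413) with DMSO and by 2.58 ± 0.46 (adjusted p = 0.00253) with imiquimod. Col4a2, a chain of type IV collagen, rose by 1.08 ± 0.35 (adjusted p = 0.0322) and 2.54 ± 0.45 (adjusted p = 0.00250). With DMSO the call of Col4a2 ended in 7 of 16 alternatives and that of Lamb3 with the sex term. Of 12 interstitial matrix genes, 11 were tested, with 2 higher and 3 lower with DMSO and 5 higher and 0 lower with imiquimod. Spp1, osteopontin, a substrate of MMP3, rose by 4.77 ± 0.65 (adjusted p = 0.000186) and 5.78 ± 0.80 (adjusted p = 0.000623). Fn1, fibronectin, was lower with DMSO (-1.60 ± 0.54, adjusted p = 0.0393) and higher with imiquimod (3.45 ± 0.71, adjusted p = 0.00578), and its imiquimod responses differed by 5.05 ± 0.89 (adjusted p = 0.00265). The Fn1 call with DMSO ended in 6 of 16 alternatives. Of the 25 genes of these lists named by the rule in knockout against Cre-negative skin with DMSO, 19 calls ended with the sex term and 20 in at least 1 alternative. Of the 25 with imiquimod, 1 ended with the sex term and 13 in at least 1 alternative. Of the 17 named in knockout skin with imiquimod against DMSO, 15 ended with the sex term and 16 in at least 1 alternative.

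The genes whose profile over the 14 libraries lay nearest to each of the 9 were named by the root mean square difference of centred log2 CPM, over genes with a mean of at least 5 CPM in some group. For Mmp3 they were Prok2 (0.69), Clec4d (0.78) and Csf3 (0.88), and for Mmp10 Cd14 (0.81), Prok2 (0.90) and Tnfrsf26 (1.01). For Mmp13 they were Ccl3 (0.81), Cd300lf (0.93) and Spp1 (1.04), and for Plaur Cd14 (0.56), Prok2 (0.70) and Ly6g (0.71). Mmp9 lay nearest to Ptgs2os2 (0.55) and, among others, Morrbid (0.72), and Mmp12 to Ccl8 (0.91), Ccbe1 (0.95) and Pla1a (0.99). Mmp14 lay nearest to Sik3, Gla and Tshz3 (0.29 to 0.33), Timp1 to Gls2, Rab31 and Smim3 (0.66 to 0.70) and Plau to Il1rap, Pqlc3 and Capza1 (0.41 to 0.45). Genes that vary little give small differences, so these values are to be read beside the gene's own standard deviation, which was 2.82 for Mmp3, 2.96 for Mmp10, 3.52 for Mmp13, 2.48 for Plaur, 1.90 for Mmp9, 2.22 for Mmp12, 0.92 for Mmp14, 1.81 for Timp1 and 1.06 for Plau.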

How the data were processed

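RNA of 14 mouse skin libraries was measured with a QuantSeq forward kit, which reads the 3′ ends of transcripts, per the labels' protocols. The authors deposited raw counts per gene, and STAR, featureCounts and DESeq2 are named in the submitters' processing notes, with the builds GRCm38 and GRCm39. Positions in the file headers are on GRCm39, and the sources used here give no version, strand setting or handling of multi-mapping, so sense and antisense reads cannot be told apart. The series' design text speaks of a topical inhibitor in wild type mice, which differs from the labels used here. No column of other samples was found. Libraries were grouped by genotype and treatment.

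Counts were filtered with filterByExpr, scaled by TMM and fitted for all groups in 1 quasi-likelihood model with edgeR 4.0.16 in R 4.3.3, with Benjamini-Hochberg adjustment over 16027 genes and a threshold of 0.05. SE is the fold change over the root of F. Counting intervals are exact at 95% and, like the floor of 3 counts, cover counting error only. Total counts ran from 5552954 to 34362477. No replicates had identical values. The method was run on simulated counts where few genes changed, in random directions, so that run does not test scaling where many genes move. Alternatives were DESeq2 1.42.0, limma 3.58.1 voom with sample quality weights, other scalings and filters, only the groups compared, a replicate block, a sex term, and libraries left out. Where that leaves 1 library in a group, it is assumed to vary like the others. Named genes were the 9 genes, Nedd8, up to 4 genes of each list with the smallest p past the threshold in a comparison, and the 3 nearest profiles, of which some genes are not reported here. The genes and lists were chosen with earlier results of these data known. Same-numbered knockout and Cre-negative DMSO libraries had correlations of 0.26, 0.10 and 0.17 between their deviations from group means. Those with different numbers ran from -0.27 to 0.10. With 3 libraries a group these values are too few to decide whether the numbers mark pairs. The labels give no pairing and the model reported uses none, and the numbers enter the replicate block only.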

Additional observations from a re-analysis of the deposited data

Results flagged for a closer look

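The imiquimod response differed between knockout and Cre-negative skin, tested as an interaction, for 2 of the 9 genes, a share near that of all genes (23.6% in either direction). The difference in log2 fold change (knockout response minus Cre-negative response) was 5.12 for Mmp12 and 1.34 for Mmp14. Mmp12 was at 48.8 and 15.8 CPM in knockout imiquimod libraries and at 1.43 and 1.88 CPM in Cre-negative imiquimod libraries, and the difference passed in all 20 alternatives. That of Mmp14 ended in 11 of 20, and it was 1.04 without knockout imiquimod replicate 1 (adjusted p = 0.198).

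Genes of the other lists are named because they passed, up to 4 a list, and 14% of all genes were positive and 9.63% negative. The difference was positive for 3 of 11 other metalloproteinases tested, 2 of 4 inhibitors, 2 of 9 plasminogen genes and 5 of 18 ADAM genes. It was positive for 3 of 12 basement membrane genes and 3 of 11 interstitial matrix genes. Of 12 cathepsins and other proteases, 4 were positive and 1 negative. The same test passed for Mmp25 (4.66), Mmp2 (2.30), Mmp19 (3.05), the inhibitors Timp3 (2.86) and Timp2 (2.05), and Serpine2 (3.36) and Lrp1 (1.70). It passed for the proteases Adam19 (3.63), Adamts14 (5.12), Adamts2 (2.44), Adamts12 (2.96), Prss23 (3.09), Fap (3.90) and Ctss (2.48), and in the other direction for Ctsd (-3.00). Of the matrix genes, Nid1 (2.10), Col4a1 (1.91), Lamc1 (2.19), Fn1 (5.05), Vcan (3.15) and Fbn1 (2.10) passed. Of these 21 calls, 16 ended in at least 1 alternative and 0 changed sign. No group had over 3 libraries, so single libraries were not screened for outlying values.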

How the results depend on the processing

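For 53 member comparisons 801 values were computed under alternatives. Of these, 721 kept their direction and side of the threshold, 45 lost a call, 30 gained one and 5 changed sign. The 5 were Mmp14 in Cre-negative skin with imiquimod by library size alone (-0.46) and without Cre-negative imiquimod replicate 2 (-0.0087), Mmp12 in knockout DMSO skin without Cre-negative DMSO replicate 3 (0.30), Timp1 in knockout imiquimod skin without Cre-negative imiquimod replicate 1 (-0.13) and Plau in wild-type skin without imiquimod replicate 2 (-0.035), and none of the 4 comparisons was called with all libraries. With 1 library left out, Mmp14 ran from -0.0087 to 0.35, Mmp12 from -1.32 to 0.30, Timp1 from -0.13 to 2.51 and Plau from -0.035 to 1.62. The cause was not tested.

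Counts of members called moved as follows. With the sex term 3 and not 6 were higher in knockout DMSO skin, 3 and not 6 in knockout skin with imiquimod, and 1 and not 2 in the difference between responses, which was also 1 without both libraries high in 18S RNA. By library size alone 3 and not 5 were higher in Cre-negative skin with imiquimod, and without a filter 1 was lower. In the difference between responses 1 was lower under DESeq2, limma voom and no filter. In wild-type skin 0 and not 1 fell with only the groups compared. Cre-negative over wild-type skin gave 1 higher under DESeq2 with either treatment, and 2 with DMSO and 3 with imiquimod without a filter. With 1 library left out, counts higher ran from 6 to 6 in knockout DMSO skin, 6 to 7 in knockout imiquimod skin, 4 to 6 in knockout, 2 to 5 in Cre-negative and 1 to 3 in wild-type skin with imiquimod, and 1 to 3 in the difference between responses. Counts lower ran from 0 to 1 in wild-type skin and in that difference.

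Over all genes, calls ranged from 1448 (sex term) to 7297 (limma voom) around 4752 in knockout DMSO skin, 796 to 3507 around 2866 in knockout imiquimod skin, 210 to 2432 around 1776, 1272 to 3681 around 2921 and 1092 to 4602 around 3433 for imiquimod in knockout, Cre-negative and wild-type skin, and 1174 to 4596 around 3785 for the difference. Cre-negative over wild-type skin had 0 calls, 144 and 552 under DESeq2 and 446 and 763 without a filter. By library size alone the median of all genes was at -0.41, 0.42, -0.76, -0.63, 0.12 and 0.84 (log2) for knockout over Cre-negative skin with DMSO, the same with imiquimod, the imiquimod response of wild-type, Cre-negative and knockout skin, and the difference between responses, and within 0.11 of 0 by TMM. With the replicate block no member call changed in knockout DMSO skin. In Cre-negative skin with imiquimod, Mmp10 (2.95, adjusted p = 0.0803) lost its call and Plau (1.67, adjusted p = 0.0264) gained one, as did Plau in knockout skin (1.61, adjusted p = 0.0493). Genes with few reads, Mmp10 and Mmp12 above all, are limited by depth.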
